A study of Mus musculus with 16 samples.

Results

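The genes described are the G1 cyclins and CDK inhibitors, namely the D cyclins *Ccnd1*, *Ccnd2* and *Ccnd3*, the E cyclins *Ccne1* and *Ccne2*, the Cip/Kip inhibitors *Cdkn1a* and *Cdkn1b*, and the INK4 inhibitors *Cdkn2a*, *Cdkn2b* and *Cdkn2c*. They were chosen by gene family, found by mouse symbol, and make up 10 of the 23609 genes of the table. All 10 passed the filter on low values (a mean of at least 10) and were among the 21034 genes tested. Their RNA was measured by RNA-seq in primary mammary tumors, 5 labelled wildtype x PyMT and 5 labelled gene trap x PyMT. Every animal carried MMTV-PyMT, the polyoma middle T antigen driven in mammary epithelium by the MMTV promoter, which induces mammary tumors. Animals of the gene trap group were heterozygous for an enhancer/gene trap in *Resf1* (*Resf1* +/-), a lentiviral insertion in the first exon that truncates the message and drives an EGFP-cre fusion. They were littermates of the wildtype animals, from a cross of the C57BL/6 trap line with FVB animals. Tumors were taken at the humane endpoint, and the age of the animals was not given in the sources used here. Whole tumors were sequenced, stroma included, and whether the tumor cells kept the wildtype copy of *Resf1* was not tested here. The labels do not say that each tumor came from a different animal, so p-values measure only the spread between these samples. In such bulk RNA, fewer cells of a type and less RNA per cell cannot be told apart.

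D cyclins bind CDK4 and CDK6 when growth signals arrive, and E cyclins bind CDK2 later in G1. The kinases they activate phosphorylate the retinoblastoma protein, which frees E2F factors to switch on the genes of DNA replication. INK4 proteins bind CDK4 and CDK6 and block the D cyclins, whereas Cip/Kip proteins bind cyclin-CDK complexes and restrain CDK2 above all. In mammary epithelium cyclin D1 is best known as a driver of growth, and polyoma middle T antigen signals through SRC and PI3-kinase, pathways known to raise it.

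A single gene value of *Cdkn2a* pools more than 1 product, which is why its start sites are shown. Transcripts from its upstream start encode p19ARF, which stabilizes p53, and transcripts from its downstream start encode p16INK4a, which inhibits CDK4 and CDK6. The adjacent *Cdkn2b* encodes p15INK4b, an INK4 inhibitor known as a target of TGF-beta signaling, and is shown because its level followed that of *Ccnd1*. The sequences are RefSeq promoters of build GRCm38.p6 on the minus strand, printed 5′ to 3′, and each is the first 200 of the 250 bases before the start. They lie at chr4:89294670-89294869 for the upstream *Cdkn2a* start, chr4:89282243-89282442 for the downstream start, and chr4:89311083-89311282 for *Cdkn2b*. Capitals mark an E2F word, defined as TTTCCCGC, TTTCGCGC, TTTGCCGC or TTTGGCGC on either strand.
Cdkn2a, upstream start: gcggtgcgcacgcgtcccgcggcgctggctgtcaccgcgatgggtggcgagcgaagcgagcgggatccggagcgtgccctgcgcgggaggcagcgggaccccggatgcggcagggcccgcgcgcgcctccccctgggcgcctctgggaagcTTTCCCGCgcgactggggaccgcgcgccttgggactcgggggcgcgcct
Cdkn2a, downstream start: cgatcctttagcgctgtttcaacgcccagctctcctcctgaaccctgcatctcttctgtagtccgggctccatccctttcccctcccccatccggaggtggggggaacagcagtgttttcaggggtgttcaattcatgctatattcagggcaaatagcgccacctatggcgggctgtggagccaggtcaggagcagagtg
Cdkn2b: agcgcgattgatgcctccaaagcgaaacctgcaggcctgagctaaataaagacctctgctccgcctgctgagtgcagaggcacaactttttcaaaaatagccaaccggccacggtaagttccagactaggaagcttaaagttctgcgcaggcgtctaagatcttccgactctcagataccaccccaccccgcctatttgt
The upstream *Cdkn2a* window held 1 such word, and the downstream window and that of *Cdkn2b* held 0. Promoter entries were found for 7 of the 10 genes, with 11 promoters in all, and 1 of these held a word within its 250 bases, against 611 of 32851 promoters (1.86%) of the whole table. A match in this window is a description of letters and no evidence of binding.

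*Resf1*, the gene that carries the trap, is given first as a check of the labels. Its normalized values were 4215, 4397, 3881, 4487 and 3517 in the wildtype tumors and 4029, 3066, 3686, 3392 and 3409 in the gene trap tumors, in the order of replicates 1 to 5. The groups overlapped, with 3 gene trap tumors below every wildtype tumor. The log2 difference (gene trap minus wildtype) was -0.22 (standard error 0.09). Limma's test gave an unadjusted p of 0.0313 and an adjusted p of 0.9997, and the exact permutation p was 0.0635. Without gene trap replicate 2 the difference was -0.17, with an unadjusted limma p of 0.0684. *Resf1* lies on chromosome 6, as do *Ccnd2* and *Cdkn1b*. Gene trap replicate 2 stood apart from the rest, at 91.8 on the first principal component (31.1% of the variance) against -18.6 to -4.78 for the other tumors, so each member's difference is also given without it. The tumors held the markers of mammary epithelium, of which 5 of 5 were tested and whose summed value was 70816 to 93983 in wildtype and 74455 to 97410 in gene trap tumors. Fibroblast markers summed to 38198 to 81985 and 50394 to 117683, respectively (5 of 5 tested). Myoepithelial markers (5 of 5 tested) summed to 5823 to 8208 and 4625 to 6373, with 4 wildtype tumors above every gene trap tumor and 3 gene trap tumors below every wildtype tumor, and their part in the results was not tested. In 9 lists of cell type markers, 0 markers had an unadjusted limma p under 0.05, and lymphocyte markers were the lowest list with several markers in the table, at 56.2 to 327.

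None of the 10 genes differed between gene trap and wildtype tumors beyond the spread between tumors. The values are the authors' normalized estimated counts, and the comparison was made by limma on log2(value + 1), a scale that understates differences of low genes. At an adjusted p under 0.05, 0 of the 10 genes and 0 of all 21034 genes passed (0%), and each of the 10 had an adjusted p of 0.9997. At an unadjusted p under 0.05 the members numbered 0, and the share of all tested genes was 2.28%. In 0 of the 10 did the groups separate without overlap, against 0.528% of all tested genes. The mean was lower in gene trap tumors for 7 genes and higher for 3, and the median log2 difference was -0.10 against 0.00 over all tested genes. The median size of the difference, without its sign, was 0.18 for the 10 genes and 0.10 for all tested genes. The 10 genes were about as variable as others, with a median coefficient of variation over the tumors of 18.9% against 17.6%.

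**Figure D1:**
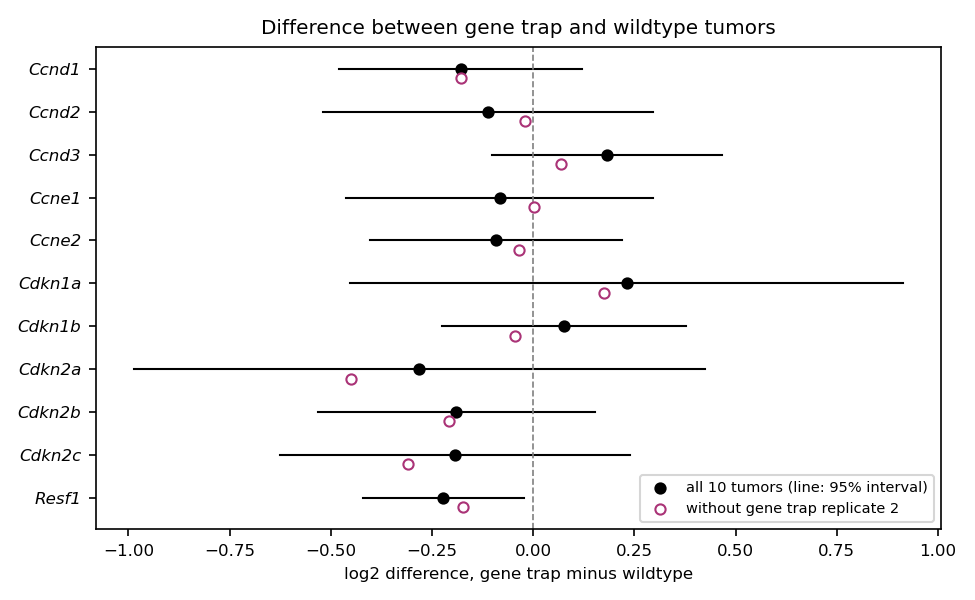
Log2 difference (gene trap minus wildtype, horizontal axis) for each of the 10 genes and *Resf1*, with filled points and 95% intervals for all 10 tumors and open points for the fit without gene trap replicate 2. The interval of each of the 10 genes includes 0, and that of *Resf1* runs from -0.42 to -0.02.

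The D cyclins were examined first, since they answer most directly to growth signals. *Ccnd1* (ENSMUSG00000070348, chromosome 7) encodes cyclin D1. Its values were 9922, 7344, 7920, 8724 and 6876 in wildtype tumors and 6148, 7145, 6333, 6706 and 9968 in gene trap tumors. Of the gene trap tumors, 3 lay below every wildtype tumor, while replicate 5 lay above them all. The means were 8157 ± 1204 and 7260 ± 1561 (SD, n = 5 each), a log2 difference of -0.18 (standard error 0.14, 95% interval -0.48 to 0.12) and an exact permutation p of 0.278. With 1 tumor left out the difference ran from -0.11 without wildtype replicate 1 (unadjusted limma p 0.461) to -0.30 without gene trap replicate 5 (unadjusted limma p 0.0181), and it was -0.18 without gene trap replicate 2. In the fit without gene trap replicate 5, 2 of the 10 genes, *Ccnd1* and *Ccnd3*, had an unadjusted limma p under 0.05, as did 2.68% of all tested genes. The smallest adjusted limma p in that fit was 0.990. In every fit that left out another tumor, 0 of the 10 genes had an unadjusted limma p under 0.05. *LTO1*, a gene that overlaps *Ccnd1* on the opposite strand, had a mean of 904, and whether reads were counted by strand was not given in the sources used here.

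*Ccnd3* (ENSMUSG00000034165, chromosome 17), which encodes cyclin D3, had the smallest unadjusted limma p of the 10 genes, 0.187. Its values were 1773, 1911, 1740, 1998 and 1613 in wildtype tumors and 2039, 2802, 2068, 1948 and 1552 in gene trap tumors. Here 3 gene trap tumors lay above every wildtype tumor, replicate 2 farthest, and replicate 5 lay below them all. The means were 1807 ± 151 and 2082 ± 453 (SD, n = 5 each), with a log2 difference of 0.18 (standard error 0.13, 95% interval -0.10 to 0.47) and an exact permutation p of 0.262. With 1 tumor left out it ran from 0.07 without gene trap replicate 2 (unadjusted limma p 0.494) to 0.28 without gene trap replicate 5 (unadjusted limma p 0.0302). Replicate 2 was also the tumor with the highest value, 942, of *Bysl*, the gene that overlaps *Ccnd3* on the opposite strand. The part of that overlap in the *Ccnd3* value was not tested. *LTO1*, which overlaps *Ccnd1*, and *AC167363.2*, which overlaps *Cdkn1a*, were highest in the same tumor too, at 1266 and 31.1. Neither *Ccnd1* nor *Cdkn1a* was highest there. A processed copy, *Ccnd3-ps*, had a mean of 17.8.

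*Ccnd2* (ENSMUSG00000000184, chromosome 6) encodes cyclin D2. Its values were 628, 582, 598, 1043 and 680 in wildtype tumors and 757, 495, 849, 643 and 515 in gene trap tumors. The groups overlapped, with 2 gene trap tumors below every wildtype tumor, and wildtype replicate 4 was the highest of the 10 tumors. The means were 706 ± 192 and 652 ± 153 (SD, n = 5 each), and the log2 difference of -0.11 (95% interval -0.52 to 0.30, exact permutation p 0.635) was 0.04 without that tumor. It was -0.02 without gene trap replicate 2 and lowest, at -0.21, without gene trap replicate 3.

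**Figure D2:**
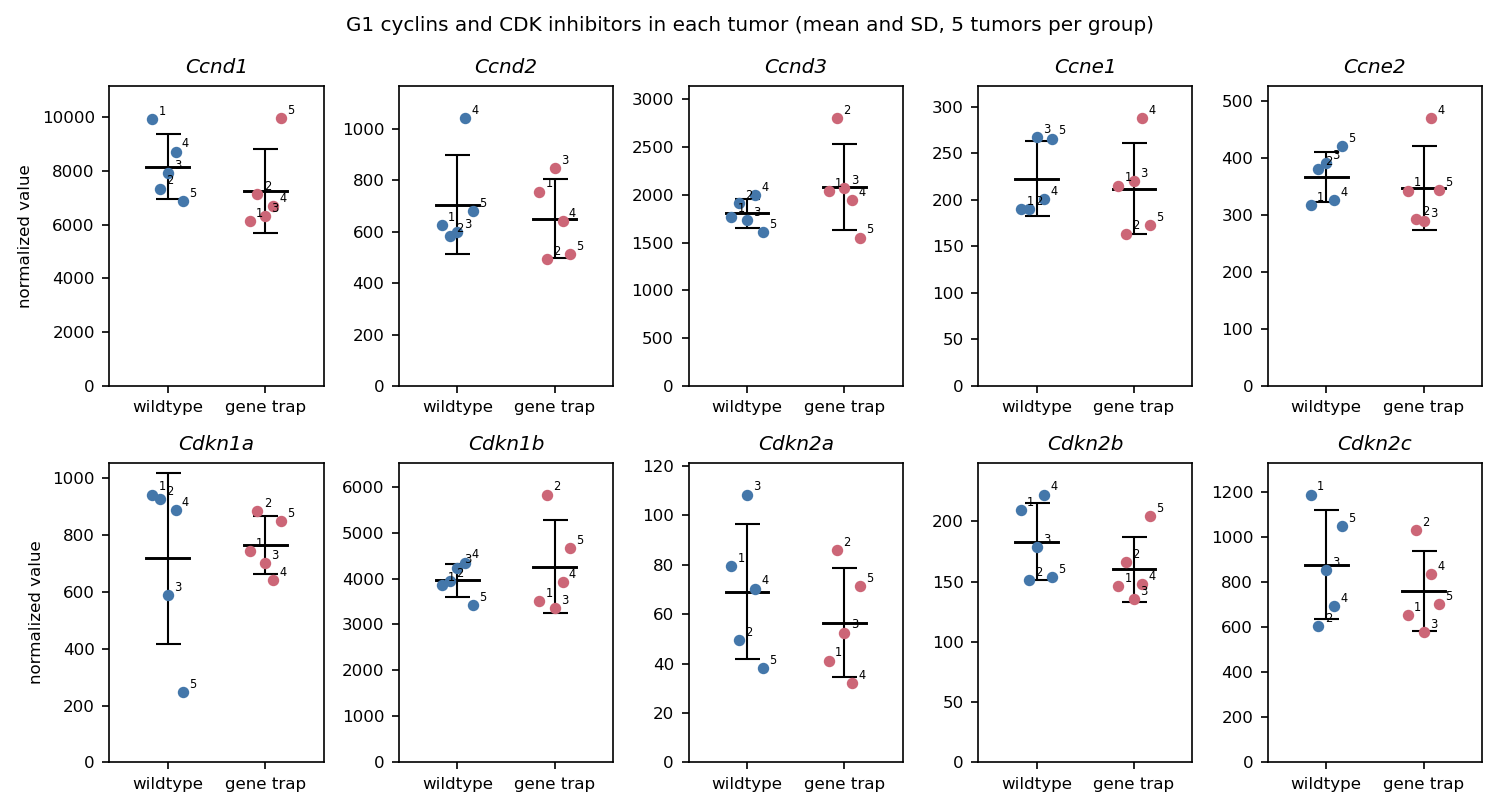
Normalized value (vertical axis, from 0) of each of the 10 genes in each tumor, with points numbered by replicate and bars at the mean ± SD of 5 tumors per group. The wildtype and gene trap points overlap in every panel, with gene trap replicate 2 highest for *Ccnd3* and *Cdkn1b* and gene trap replicate 5 highest for *Ccnd1*.

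The D cyclins were then set against each other within each tumor, as shares of their summed value per kilobase of the longest coding transcript, a measure that scaling between tumors does not alter. *Ccnd1* made up 73.9%, 66.3%, 69.8%, 67.8% and 67.9% of the sum in wildtype tumors and 60.3%, 57.6%, 60.3%, 63.7% and 76.6% in gene trap tumors. In 4 gene trap tumors the *Ccnd1* share was below that of every wildtype tumor, and in replicate 5 it was above them all. *Ccnd3* was the mirror of this, as it must be where the shares make up a whole and that of *Ccnd2* is small. Its share was 23.4% to 30.6% in wildtype tumors, 32.7% to 40.0% in gene trap replicates 1 to 4 and 21.1% in replicate 5. *Ccnd2* held a small share in both groups, 2.76% to 4.78% in wildtype and 2.34% to 4.78% in gene trap tumors. The mean *Ccnd1* share was 69.1% ± 2.93 in wildtype and 63.7% ± 7.51 in gene trap tumors (SD, n = 5 each), so the groups overlap through replicate 5. These shares are a description, and no test of them was made.

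**Figure D3:**
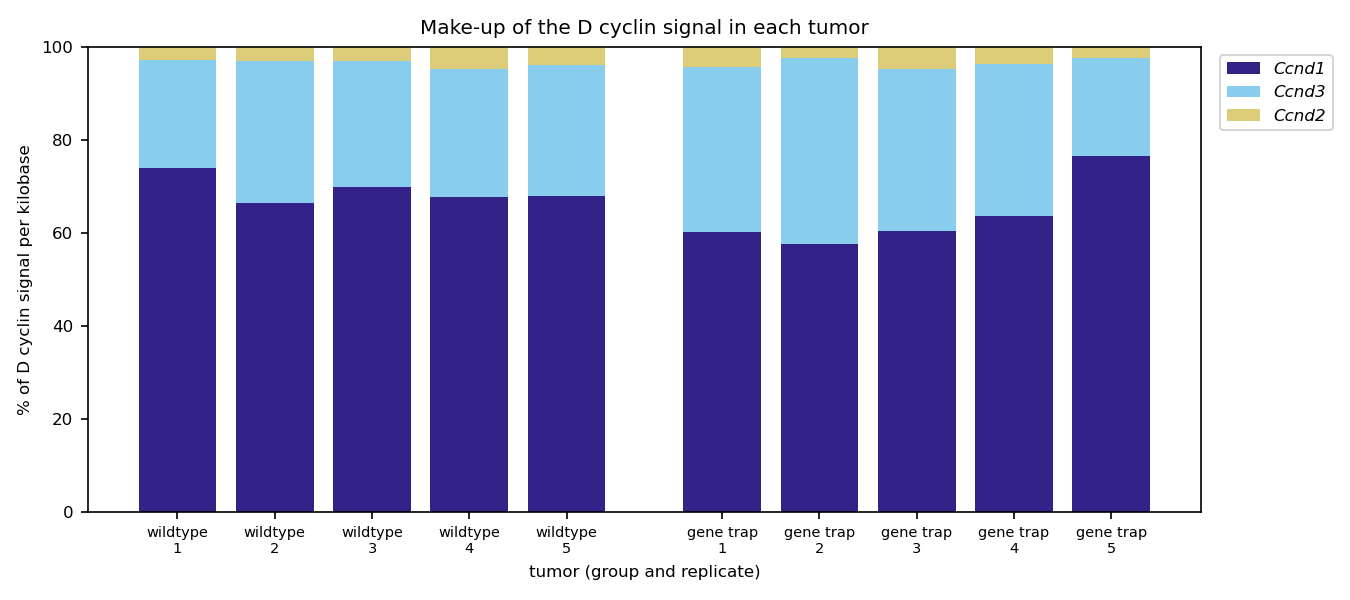
Share (percent, vertical axis) of *Ccnd1*, *Ccnd3* and *Ccnd2* in the summed D cyclin value per kilobase, as stacked bars for each of the 10 tumors. The *Ccnd1* part is 66.3% to 73.9% in wildtype tumors, 57.6% to 63.7% in gene trap replicates 1 to 4, and 76.6% in gene trap replicate 5.

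Neither E cyclin differed between the groups beyond the spread between tumors. *Ccne1* (ENSMUSG00000002068, chromosome 7) encodes cyclin E1, a partner of CDK2 and a classic E2F target. Its values were 190, 190, 268, 201 and 266 in wildtype tumors and 215, 164, 220, 288 and 173 in gene trap tumors. The highest tumor and the lowest were both gene trap tumors, and the log2 difference was -0.08 (standard error 0.17, 95% interval -0.46 to 0.30, exact permutation p 0.651). With 1 tumor left out it ran from -0.20 without gene trap replicate 4 to 0.00262 without gene trap replicate 2. *Ccne2* (ENSMUSG00000028212, chromosome 4), which encodes cyclin E2, had values of 318, 381, 391, 326 and 421 in wildtype tumors and 343, 293, 289, 471 and 344 in gene trap tumors. Gene trap replicate 4 was highest for both genes. The log2 difference of *Ccne2* was -0.09 (standard error 0.14, 95% interval -0.40 to 0.22, exact permutation p 0.540), and it ran from -0.21 without gene trap replicate 4 to -0.03 without gene trap replicate 3, with -0.04 without gene trap replicate 2. Per kilobase, *Ccne1* made up 42.8% to 50.7% of the E cyclin sum in wildtype tumors and 43.1% to 53.3% in gene trap tumors. *Ints8*, which overlaps *Ccne2* on the opposite strand, had a mean of 2129 and was lowest in gene trap replicate 2, at 1486.

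The Cip/Kip inhibitors followed. *Cdkn1a* (ENSMUSG00000023067, chromosome 17) encodes p21, the inhibitor through which p53 arrests cells in G1. Its values were 942, 926, 587, 889 and 248 in wildtype tumors and 743, 885, 703, 642 and 850 in gene trap tumors. Wildtype replicate 5 was far below the other tumors, and the highest value was 3.80 times the lowest. The coefficient of variation was 41.8% in wildtype and 13.3% in gene trap tumors. The log2 difference was 0.23 (standard error 0.31, 95% interval -0.45 to 0.91, exact permutation p 0.754) and ran from -0.11 without wildtype replicate 5 to 0.37 without wildtype replicate 1, with 0.18 without gene trap replicate 2. Wildtype replicate 5 also had the highest summed value of skeletal muscle markers, 8453, and their part in its *Cdkn1a* value was not tested.

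*Cdkn1b* (ENSMUSG00000003031, chromosome 6) encodes p27, an inhibitor of CDK2 complexes that also helps to assemble cyclin D with CDK4. Its values were 3852, 3950, 4237, 4347 and 3430 in wildtype tumors and 3512, 5825, 3355, 3925 and 4656 in gene trap tumors. Gene trap replicate 2 was highest, and the remaining gene trap tumors ran past both ends of the wildtype range. The means were 3963 ± 360 and 4254 ± 1012 (SD, n = 5 each), with a log2 difference of 0.08 (95% interval -0.22 to 0.38, exact permutation p 0.690) and of -0.04 without gene trap replicate 2. With other tumors left out the difference reached 0.15, without gene trap replicate 3. Per kilobase, *Cdkn1b* made up 65.1% to 86.3% of the sum of both inhibitors in wildtype tumors and 68.4% to 75.1% in gene trap tumors.

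All INK4 inhibitors had lower means in gene trap tumors, and none passed the test. *Cdkn2c* (ENSMUSG00000028551, chromosome 4) encodes p18INK4c and had the highest level per kilobase of the 3. Its values were 1190, 604, 854, 696 and 1050 in wildtype tumors and 655, 1033, 578, 836 and 704 in gene trap tumors. The log2 difference was -0.19 (standard error 0.20, 95% interval -0.62 to 0.24, exact permutation p 0.397). With 1 tumor left out it ran from -0.32 without wildtype replicate 2 to -0.07 without wildtype replicate 1, with -0.31 without gene trap replicate 2 and -0.10 without gene trap replicate 3. *Cdkn2b* (ENSMUSG00000073802, chromosome 4) had values of 209, 151, 179, 222 and 154 in wildtype tumors and 146, 166, 136, 148 and 204 in gene trap tumors. As with *Ccnd1*, 3 gene trap tumors lay below every wildtype tumor, and replicate 5 was the highest of its group. The means of *Cdkn2b* were 183 ± 32.0 and 160 ± 27.1 (SD, n = 5 each), with a log2 difference of -0.19 (standard error 0.16, 95% interval -0.53 to 0.15, exact permutation p 0.230), which ran from -0.28 to -0.12 with 1 tumor left out and was -0.21 without gene trap replicate 2.

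*Cdkn2a* (ENSMUSG00000044303, chromosome 4) had the lowest level per kilobase of the 10 genes and the widest interval. Its values were 79.4, 49.3, 108, 70.3 and 38.2 in wildtype tumors and 41.2, 85.8, 52.5, 32.0 and 71.2 in gene trap tumors. The log2 difference was -0.28 (standard error 0.32, 95% interval -0.99 to 0.42, exact permutation p 0.452). With 1 tumor left out it ran from -0.47 without wildtype replicate 5 to -0.10 without wildtype replicate 3, with -0.45 without gene trap replicate 2 and -0.10 without gene trap replicate 4. The value does not separate the p19ARF and p16INK4a transcripts of the sequences given above. Within the INK4 sum per kilobase, *Cdkn2c* held 54.2% to 73.5% in wildtype and 55.7% to 70.4% in gene trap tumors, and *Cdkn2a* held 7.38% to 20.3% and 7.45% to 15.6%.

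Levels were compared between genes only per kilobase of the longest coding transcript, averaged over all 10 tumors. *Ccnd1* was highest at 2061, followed by *Ccnd3* at 920 and *Cdkn1b* at 903. *Cdkn1a* at 356 and *Cdkn2c* at 332 came next. The remainder were *Cdkn2b* at 123, *Ccne2* at 119, *Ccne1* at 109, *Ccnd2* at 107 and *Cdkn2a* at 70.2. Only 3 of the 9 steps in this order separated the tumors without overlap of the ranges. These were *Ccnd1* over *Ccnd3*, 2.24 times, *Cdkn1b* over *Cdkn1a*, 2.53 times, and *Cdkn2c* over *Cdkn2b*, 2.69 times, each in 10 of 10 tumors. The length used for a gene was the same in every tumor, so these ranges do not show any error in it. Which transcripts the tumors used was not tested. *Ccnd3* exceeded *Cdkn1b* in 6 of 10 tumors, *Cdkn1a* exceeded *Cdkn2c* in 6 and *Cdkn2b* exceeded *Ccne2* in 5, so these neighbors do not differ beyond their spread. Of the 3 lowest steps, *Ccne2* exceeded *Ccne1* in 8 tumors, *Ccne1* exceeded *Ccnd2* in 6 and *Ccnd2* exceeded *Cdkn2a* in 8, with overlapping ranges.

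The genes that act with these cyclins and inhibitors were read from gene lists. Of 29 further genes of the G1 machinery in the table, 13 had a higher and 16 a lower mean in gene trap tumors, 0 had an unadjusted p under 0.05, and the median log2 difference was -0.01. The closest was *Cks1b*, a cofactor in the destruction of p27, at 911 ± 64.7 and 1114 ± 234 (SD, n = 5 each) with a log2 difference of 0.27 (standard error 0.13) and an unadjusted limma p of 0.0581, or 0.17 without gene trap replicate 2. *Cdk2*, the kinase of the E cyclins, differed by 0.08, and the pocket protein genes *Rbl1* and *Rbl2* by -0.12 each, or 0.04, -0.05 and -0.03 in that order without gene trap replicate 2. Among 25 E2F and S phase genes, downstream of the G1 cyclins, 10 were higher and 15 lower, 0 passed, and the median was -0.02. *Uhrf1*, which maintains DNA methylation at replication forks, differed by 0.22 (0.17 without gene trap replicate 2) and *Mcm6*, a subunit of the replicative helicase, by -0.15 (-0.03 without it). Among 20 mitotic genes, 6 were higher and 14 lower, 0 passed, and the median was -0.04. The proliferation marker *Mki67* was 16944 ± 3496 in wildtype and 15712 ± 2911 in gene trap tumors (SD, n = 5 each), a log2 difference of -0.10, or -0.02 without gene trap replicate 2.

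Targets of p53 and regulators of the members were read in the same way. Of 20 p53 targets other than *Cdkn1a*, 11 were higher and 9 lower, 0 had an unadjusted p under 0.05, and the median was 0.02. *Btg2*, an antiproliferative p53 target, was 2948 ± 1688 and 1786 ± 182 (SD, n = 5 each), with a log2 difference of -0.56 (standard error 0.29). *Trp53*, which encodes p53, was 979 ± 130 and 1102 ± 140, a log2 difference of 0.17, or 0.10 without gene trap replicate 2. Of 20 regulators of the members, 9 were higher and 11 lower, and 2 had an unadjusted limma p under 0.05, against 2.28% of all tested genes. Both were lower in gene trap tumors, and neither passed adjustment (adjusted limma p 0.9997). The list was chosen with earlier results of these data known, so the count is a description and no independent comparison with that share. *Tbx2*, a repressor of *Cdkn2a* and *Cdkn1a*, was 73.8 ± 28.9 and 40.9 ± 7.23 (SD, n = 5 each), with a log2 difference of -0.76 (standard error 0.27, exact permutation p 0.0317). *Fos*, a subunit of AP-1, which acts on the *Ccnd1* promoter, was 3134 ± 1409 and 1756 ± 478 (SD, n = 5 each), with a log2 difference of -0.77 (standard error 0.29, exact permutation p 0.0397). Without gene trap replicate 2, the *Fos* difference was -0.58, with an unadjusted limma p of 0.0558.

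The 10 genes were then compared with each other across the 10 tumors, on log2 values, by Pearson's r and Spearman's rho with permutation p-values adjusted over the 45 pairs. *Ccnd1* and *Cdkn2b* varied together from tumor to tumor, with r = 0.923 (permutation p 0.00032, adjusted 0.0144) and rho = 0.903 (permutation p 0.00067, adjusted 0.0301). The tumors highest for both genes were replicates 1 and 4 of the wildtype group and replicate 5 of the gene trap group, and the lowest were gene trap replicates 1, 3 and 4. Without wildtype replicate 1 and gene trap replicate 5, the farthest from the median of *Ccnd1*, r was 0.924. With each value centered on its group mean r was 0.910, and without gene trap replicate 2 it was 0.926. The adjusted permutation p was above 0.05 under quantile normalization (r = 0.850, adjusted p 0.0828) and with wildtype replicate 1, wildtype replicate 3 or gene trap replicate 3 left out (exact permutation, adjusted p 0.0542 to 0.0604). Adjusted over 75 relations, which include those with the gene lists, the permutation p of r was 0.0240 and that of rho 0.0502.

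**Figure D4:**
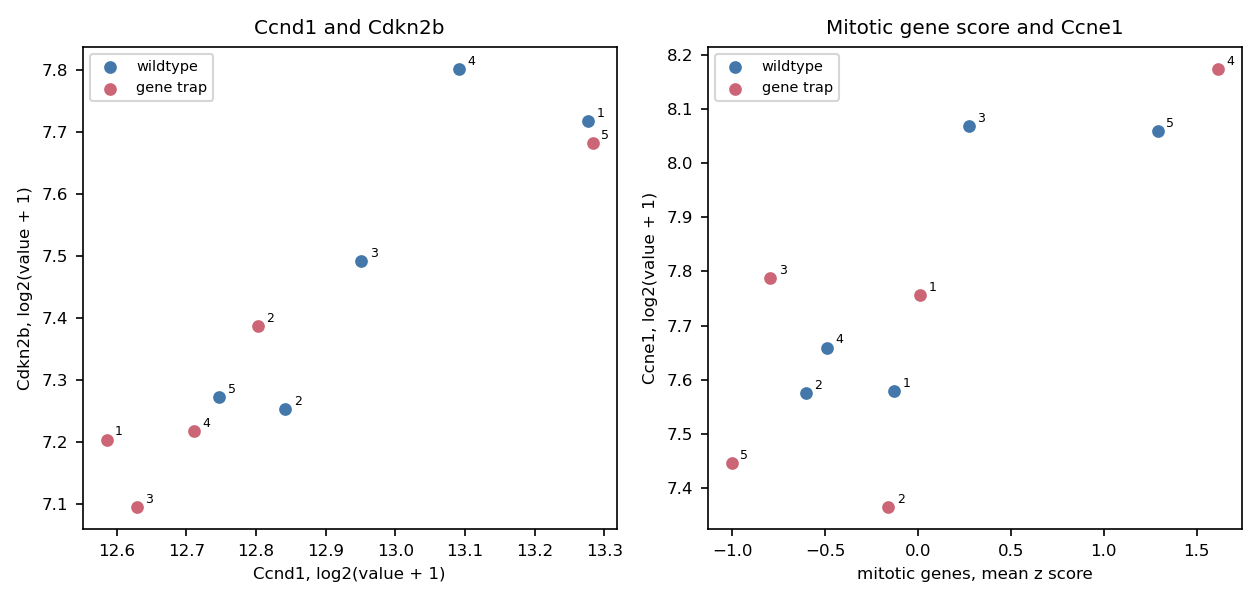
Left, log2(value + 1) of *Cdkn2b* against that of *Ccnd1*, and right, log2(value + 1) of *Ccne1* against the mean z score of the mitotic genes, with 1 point per tumor numbered by replicate and r of 0.923 and 0.787, respectively. The tumors of both groups lie along the same rising line on the left, and on the right gene trap replicate 4 and wildtype replicate 5 lie at the upper end.

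Likeness to *Ccnd1* was also ranked over all 21033 other tested genes, as a description. Only 2 genes had an r with *Ccnd1* of at least 0.923, *Cdkn2b* and *Lnx1*, an E3 ubiquitin ligase gene named after its values were seen. No gene had a higher r with *Cdkn2b* than *Ccnd1*. Cell type markers are given beside this pair. Summed fibroblast markers had r = -0.596 with *Ccnd1* (permutation p 0.0657) and -0.599 with *Cdkn2b* (permutation p 0.0610). They did not stand alone, since r with *Ccnd1* and *Cdkn2b* was -0.579 and -0.560 for milk markers and -0.539 and -0.474 for skeletal muscle markers. For endothelial markers it was -0.348 and -0.494, and for myoepithelial markers 0.388 and 0.422. Summed epithelial markers had r = 0.232 with *Ccnd1* and 0.326 with *Cdkn2b*. Without the 2 tumors farthest from the median of the gene, r with epithelial markers was 0.747 for *Ccnd1* and 0.756 for *Cdkn2b*. With fibroblast markers it was then -0.721 and -0.399, respectively. The tumors left out were wildtype replicate 1 and gene trap replicate 5 for *Ccnd1*, but wildtype replicates 1 and 4 for *Cdkn2b*. These values thus come from unlike sets of tumors, and no test of them was made. Over all 10 tumors, none of the 18 relations, with 9 cell types, passed adjustment, with a smallest adjusted permutation p of 0.379. The part of these cell types in the relation of *Ccnd1* and *Cdkn2b* was not tested.

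No other pair passed adjustment on the values as reported. *Ccne1* and *Ccne2* had r = 0.748 (permutation p 0.0139, adjusted over the 45 pairs 0.209) and rho = 0.552 (permutation p 0.105). The r was 0.530 without wildtype replicate 3 and gene trap replicate 4, so it rests in part on these tumors. *Ccne1* and *Cdkn1a* ran in opposite directions, with r = -0.689 (permutation p 0.00849, adjusted 0.191), and -0.833 without the same tumors. *Cdkn2a* and its neighbor *Cdkn2b* had r = 0.646 (permutation p 0.0482, adjusted 0.477). Further pairs passed under some alternatives, *Ccne1* and *Ccne2* with columns rescaled to the same total, *Ccnd2* and *Cdkn1b* without wildtype replicate 4, and *Ccne1* and *Cdkn1a* without wildtype replicate 5 or gene trap replicate 4. Of the 45 pairs, 22 had a positive r, and the range was -0.689 to 0.923.

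**Figure D5:**
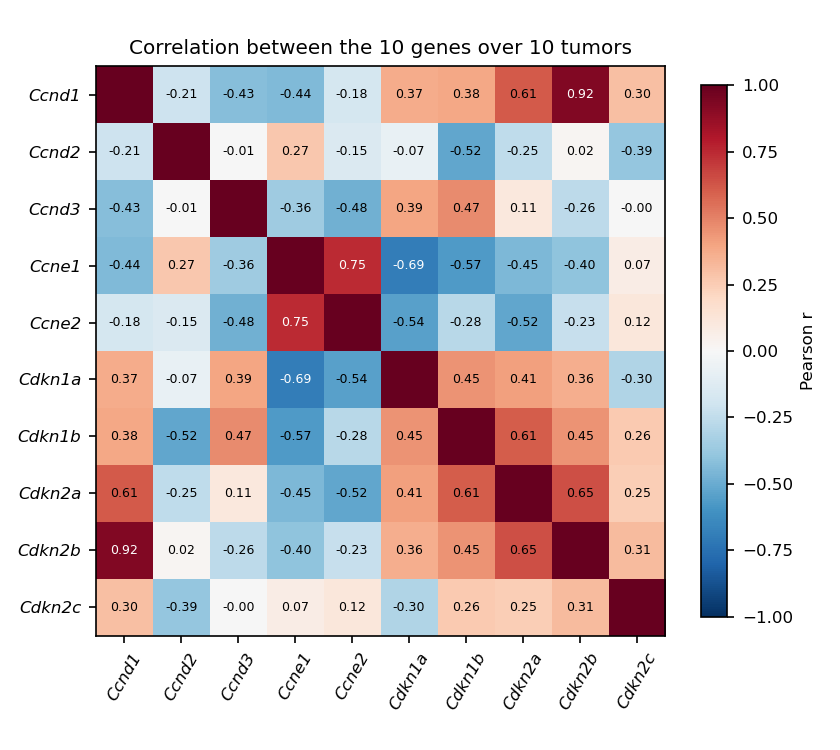
Pearson r between each pair of the 10 genes over 10 tumors, colored from -1 (blue) to 1 (red). The highest r is that of *Ccnd1* and *Cdkn2b*, 0.923, and the lowest that of *Ccne1* and *Cdkn1a*, -0.689.

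Each gene was finally set against the mean z scores of the E2F and S phase genes, mitotic genes and p53 targets, in 30 relations of which 0 passed adjustment over 75. *Ccne1* had r = 0.787 with the mitotic score (permutation p 0.00645, adjusted 0.165) and 0.674 without wildtype replicate 3 and gene trap replicate 4. *Ccne2* had r = 0.773 with it (permutation p 0.00878) and 0.261 without wildtype replicate 5 and gene trap replicate 4, so that relation rests on these tumors. The mitotic score was highest in gene trap replicate 4, at 1.61, and wildtype replicate 5, at 1.29, and lowest in gene trap replicate 5. *Cdkn1a* had r = -0.676 with the mitotic score (permutation p 0.0344, adjusted 0.258) and -0.574 without wildtype replicates 3 and 5. With the p53 target score its r was 0.666 (permutation p 0.0517, adjusted 0.323), and 0.343 without the same tumors. The lowest tumor for *Cdkn1a*, wildtype replicate 5, had the lowest p53 target score, -0.83. *Ccnd1* had r = 0.718 with the p53 target score (permutation p 0.0170, adjusted 0.182) and 0.602 without wildtype replicate 1 and gene trap replicate 5. Gene trap replicate 5, the highest tumor for *Ccnd1*, had the highest p53 target score, 0.90.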

How the data were processed

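RNA was extracted from tumors with TRIzol, made into TruSeq Stranded Total RNA libraries and sequenced. The labels name STAR 2.7.8a, Partek and build mm39. The authors deposited estimated counts per gene, a signal already scaled across tumors by median ratios, with 0 zeros, fractional values and column totals of 31995078 to 42153593. Depth per tumor is therefore unknown, and no interval that needs it is given. The labels list 16 tumors, 8 per group, and 10 of 16 columns matched a tumor by name. The other 6, named by an animal's number, were not used. Symbols were found for 22899 of 23609 IDs (97.0%) from the GENCODE M21 and RefSeq tables, which also gave transcript lengths.

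Values were converted to log2 with a pseudocount of 1, and 21034 genes with a mean of at least 10 were fitted with limma 3.58.1 (R 4.3.3), with a mean-variance trend and the group as factor, and p-values were adjusted over all genes (Benjamini-Hochberg). Single genes were also compared by exact two-sided permutation over 252 arrangements, with a smallest possible p of 0.00794. Correlations used two-sided permutation with 100000 resamples, exact with 9 tumors. The fit was tested on simulated data. The members and gene lists were chosen with earlier results of these data known. Named genes were the members, *Resf1* and, from each list, up to 3 genes with the smallest p in each direction. *Lnx1* and genes that overlap a member were added after seeing values. *Skp1*, *Lin54* and *Fosl1* were not analysed here. Alternatives were other pseudocounts, filters and scalings, no trend, tumor weights, a replicate block and each tumor left out. The 45 pairs of members were planned, whereas *Ccnd1* and *Cdkn2b* were singled out, and the alternatives for them and the correlations with list scores and markers chosen, after seeing the data. Python 3.11.15, scipy 1.17.1 and matplotlib 3.10.9 were used.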

Additional observations from a re-analysis of the deposited data

Results flagged for a closer look

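In 56 groups of 5 tumors, an end tumor far from its group was found 6 times by Dixon's test at the 95% level. Chance would give about 2.8, or 1 in 20 groups, only for normally distributed values and independent groups. Gene values and marker sums were not converted to log2, and D cyclin shares were tested beside the values they derive from. The flags therefore cannot be read as an excess, and each was the highest tumor of its group. *Ccnd1* reached 9968 in gene trap replicate 5, the rest of its group lying at 6148 to 7145. *Ccnd2* was 1043 in wildtype replicate 4, against 582 to 680. For the p53 target score, gene trap replicate 5 stood at 0.904 and the rest of its group at -0.35 to 0.00. The remaining 3 were marker sums, with fibroblast markers at 117683 in gene trap replicate 1 (50394 to 62023 in the others), lymphocyte markers at 327 in gene trap replicate 3 (56.2 to 102) and skeletal muscle markers at 8453 in wildtype replicate 5 (532 to 2537). Gene trap replicate 5 was thus far from its group in both *Ccnd1* and the p53 target score.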

How the results depend on the processing

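Under 19 alternatives, 10 of which left out 1 tumor, 0 of the 10 genes and 0 of all tested genes passed at an adjusted p under 0.05, while 304 to 692 genes had an unadjusted p below 0.05 (479 as reported). Of 190 differences of single members, 185 kept their direction. The 5 that turned were *Ccnd2* without wildtype replicate 4 (0.0381, with a leave-one-out range of -0.21 to 0.0381), *Ccne1* without gene trap replicate 2 (0.00262, range -0.20 to 0.00262), *Cdkn1a* without wildtype replicate 5 (-0.114, range -0.114 to 0.37), *Cdkn1b* without gene trap replicate 2 (-0.0442, range -0.0442 to 0.15) and *Cdkn1b* with quality weights per tumor (-0.0475). Without gene trap replicate 5, 2 members had an unadjusted limma p under 0.05 (2.68% of all tested genes), in place of 0 as reported and under every other alternative. With quantile normalization, columns rescaled to the same total or the replicate block, 1 gene of the G1 machinery was higher at that level in place of 0 (leave-one-out range 0 to 1). With quality weights, 1 regulator was lower in place of 2 (1 to 2 on leaving out tumors, with 1 without wildtype replicate 4 or gene trap replicate 2). The leave-one-out range was 0 to 2 for E2F and S phase genes higher, and 0 to 1 for mitotic genes lower, p53 targets higher, p53 targets lower and regulators higher. The r of *Ccnd1* and *Cdkn2b* was 0.850 with quantile normalization and 0.908 to 0.961 with 1 tumor left out. The cause of these moves was not tested. Tumors with the same number differ in genotype and so come from different animals. Their deviations had a mean correlation of -0.01 over 5 pairs (-0.16 to 0.15). No pairing by number was seen, though so few pairs cannot exclude one. With the replicate block, 426 genes had an unadjusted p under 0.05 and 0 members did, with a smallest member p in limma's test of 0.108. Depth per tumor is unknown, so the precision of low genes such as *Cdkn2a* rests on the spread between 5 tumors per group.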
